A study of Mus with 96 samples.

Results

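The transcription factors that set and maintain hepatocyte identity were followed across mouse livers with and without hepatocyte Bmal1. They were Hnf4a, Foxa1, Foxa2, Foxa3, Cebpa, Cebpb, Onecut1, Creb3l3 and Prox1. The members were chosen by name, as the rows of the count table that carry these 9 symbols, and 9 of 55487 genes in the table met that rule. These names and the other gene lists were chosen with earlier results of these data known. Their counts beside shares of all genes are therefore a description and not an independent test. All 9 passed the filter on low counts, a sum of at least 100 over the libraries, which left 15548 genes for testing.

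Hepatocyte identity is held by a small network of DNA-binding proteins that bind one another's promoters and the promoters of liver genes. HNF4A is a nuclear receptor required for the hepatocyte program, and the FOXA proteins are forkhead factors that can bind closed chromatin and open it. C/EBP-alpha and C/EBP-beta are leucine-zipper factors of metabolic and acute-phase genes, ONECUT1 is also known as HNF6, CREB3L3 (CREBH) is a membrane-bound factor of the endoplasmic reticulum that is released by cleavage on fasting or stress, and PROX1 is a homeobox protein that binds HNF4A and other nuclear receptors as a co-repressor. BMAL1 (gene Arntl) is a core activator of the circadian clock.

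RNA came from 96 livers, 1 library each, in 24 groups of 4 mice. Hep-Bmal1KO mice carried 1 copy of an albumin-promoter Cre (AlbCre/+) and 2 floxed Bmal1 alleles (Bmal1flx/flx), while Hep-Bmal1WT mice were littermates with the same floxed alleles and no Cre (Alb+/+). All were C57BL/6J mice of both sexes, aged 8 to 10 weeks when housed, before at least 1 week of acclimation and the diet period. The mice were kept on a 12-hour light and 12-hour dark cycle. They were fed normal chow (NC) or, for 2 weeks, a choline-deficient high-fat diet (cdHFD). The cdHFD also held cholesterol, a stated amount of methionine, and less protein and carbohydrate than NC, so effects of its components cannot be told apart. Livers were taken at zeitgeber time (ZT, hours after lights on) 2, 6, 10, 14, 18 and 22. Since Cre was present in Hep-Bmal1KO only, an effect of Cre and one of the deletion cannot be told apart, and the albumin promoter restricts the deletion to albumin-expressing cells.

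Library depth ranged from 1861740 to 9718615 counts in genes, with a median of 6412078.5, and the shallowest library was in Hep-Bmal1WT on NC. Bmal1 itself (Arntl) was 20.2 ± 4.65 CPM (counts scaled to library size; SD, n = 4) in Hep-Bmal1WT on NC at ZT 2 and 0.748 ± 0.463 at ZT 10, and in Hep-Bmal1KO it was 9.83 ± 2.55 and 5.77 ± 3.81. The 3′ counts do not check the deleted part of the gene. As a check of the labels, each library was placed between the means of both genotypes by 10 clock genes and by the 20 other genes that best separated the genotypes at the other ZTs, with the 9 members left out. By both sets, 7 libraries lay nearer the other genotype than that of their label: 2 in each of Hep-Bmal1WT on NC, Hep-Bmal1WT on cdHFD and Hep-Bmal1KO on NC, and 1 in Hep-Bmal1KO on cdHFD. Groups are named here by their labels, and genotype results are also given without these 7 libraries. They were picked by genes that separate the genotypes, so values without them are a description and not an independent test. The labels name each library by a letter and a number, and all libraries that share a number came from a single genotype and diet, so whatever such libraries share and the group cannot be told apart. The libraries of ZT 2, 10 and 18 also come before all those of ZT 6, 14 and 22 in the deposited order. Whatever each of these sets shares and a difference between their ZTs cannot be told apart. In whole liver, fewer cells of a type and less RNA per cell cannot be told apart either. P-values measure the spread between mice, and all comparisons draw on the same 96 livers.

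The members differed in how precisely they were measured. Total counts over the 96 libraries ran from 1177 for Onecut1 to 191763 for Cebpb. The SD of log2 CPM among the 4 livers of a group and ZT had a median of 0.13 for Hnf4a and 0.14 for Creb3l3. It was 0.23 for Cebpb, between 0.27 and 0.33 for Cebpa, the 3 Foxa genes and Prox1, and 0.85 for Onecut1. Tags were counted at the 3′ end, and levels are compared here only within a gene.

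**Figure D1:**
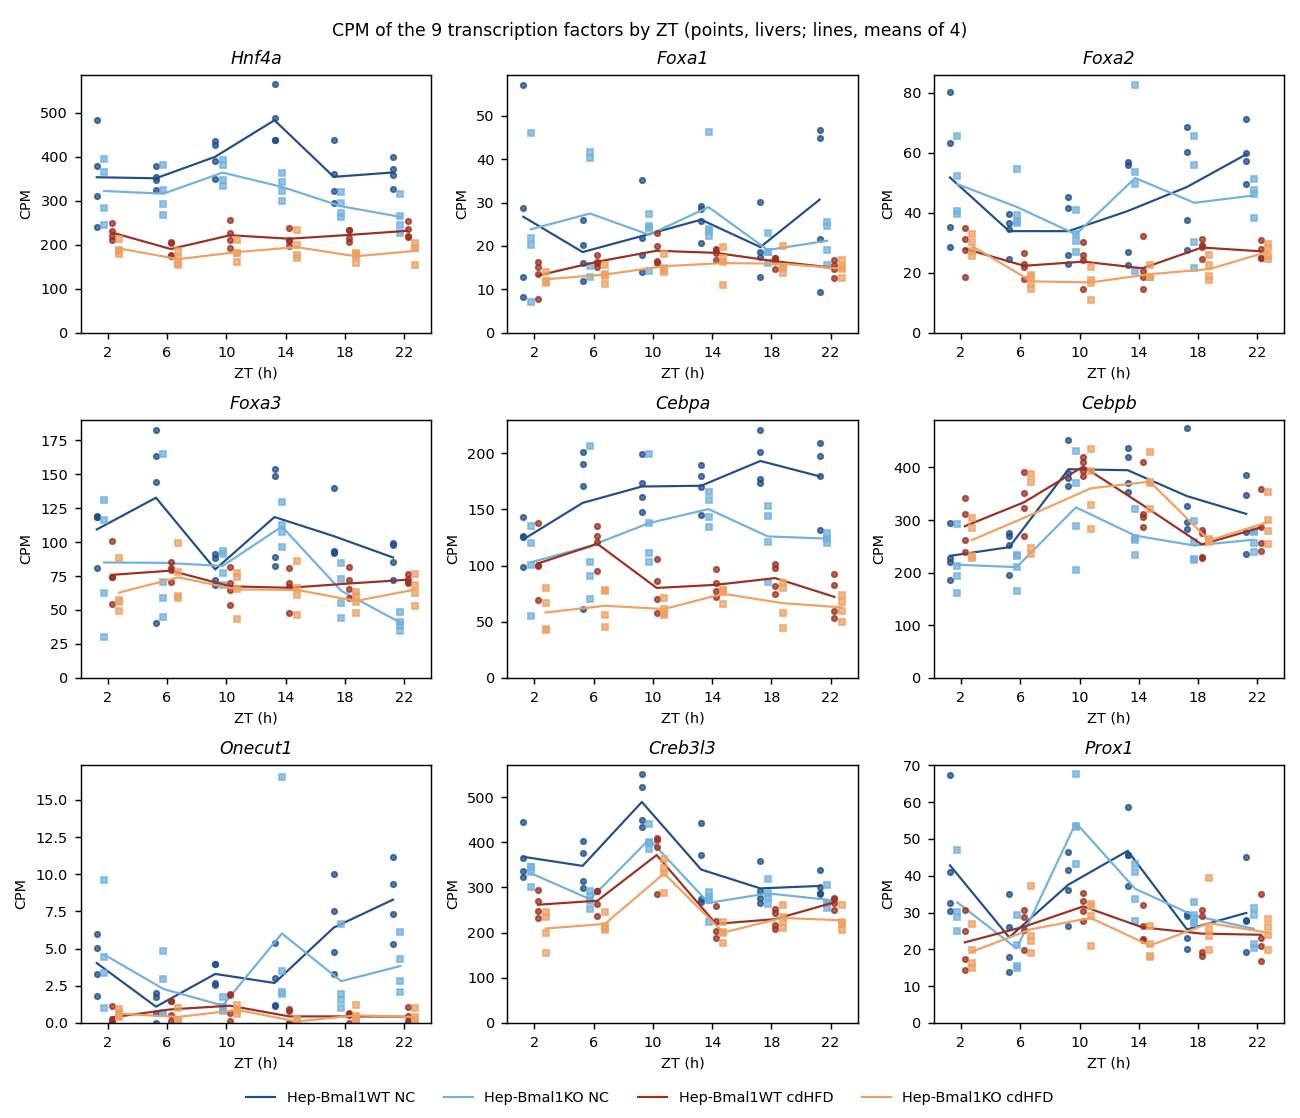
Level of each of the 9 factors in CPM (vertical axis) against ZT in hours (horizontal axis). Points are single livers, lines join the means of 4 livers, and colours mark the 4 groups of genotype and diet. For Hnf4a the highest group mean is that of Hep-Bmal1WT on NC (385 CPM) and the lowest that of Hep-Bmal1KO on cdHFD (183 CPM).

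The first question was what loss of hepatocyte Bmal1 did to the levels of these factors on chow. On NC, 5 of the 9 were lower in Hep-Bmal1KO: Hnf4a, Foxa3, Cebpa, Cebpb and Creb3l3, with changes from -14.4 to -28.4% (edgeR quasi-likelihood F-test, 24 livers against 24, adjusted p under 0.05). Among all genes tested, 5.61% were called lower in this comparison. Foxa1, Foxa2, Onecut1 and Prox1 did not pass the test. The median log2 fold change was -0.27 over the 9 members and -0.012 over all genes tested. On cdHFD, 3 of the 9 were lower, Hnf4a, Cebpa and Creb3l3, against 4.99% of all genes, and the medians were -0.19 over the members and 0.0099 over all genes.

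Hnf4a (ENSMUSG00000017950) encodes the nuclear receptor of the group and lies on chromosome 2 at 163506811-163572907 (GRCm38, the mm10 build, RefSeq coordinates). Its level was 241, 376 and 566 CPM (lowest, median and highest of 24 livers) in Hep-Bmal1WT on NC and 227, 318 and 396 CPM in Hep-Bmal1KO on NC. Hep-Bmal1KO had the lower mean at 6 of 6 ZTs. At ZT 14 the 4 Hep-Bmal1WT livers held 439, 439, 566 and 488 CPM, and the 4 Hep-Bmal1KO livers held 343, 299, 322 and 363 CPM. The genotypes overlapped at neither ZT 14 nor ZT 22, where Hep-Bmal1WT held 373, 400, 359 and 326 CPM and Hep-Bmal1KO 246, 227, 315 and 266 CPM. The log2 fold change was -0.29 (SE 0.064, adjusted p = 0.0011), or -18.3%, and -0.34 (adjusted p = 0.000143) without the 7 libraries.

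On cdHFD, Hnf4a was lower in both genotypes than on NC, and the genotype difference was of similar size. Its lowest, median and highest levels were 174, 216 and 256 CPM in Hep-Bmal1WT and 154, 181 and 233 CPM in Hep-Bmal1KO. The log2 fold change between genotypes was -0.25 (SE 0.043, adjusted p = 5.02e-05), again with a lower mean at 6 of 6 ZTs, 2 of them without overlap. An antisense gene, Hnf4aos, overlaps Hnf4a and held 4453 counts in all against 163233 for Hnf4a. Whether counting used strand is not given in the sources used here, so reads of such pairs may not have been told apart.

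Among the forkhead factors, Foxa3 was called lower in Hep-Bmal1KO on NC. Foxa3 (ENSMUSG00000040891, chromosome 7 at 19013283-19023539) ranged from 40.7 to 182 CPM with a median of 92.9 in Hep-Bmal1WT, and from 30.3 to 164 CPM with a median of 71.6 in Hep-Bmal1KO. The clearest separation was late in the dark phase. At ZT 22 the Hep-Bmal1WT livers held 99.35, 97.95, 85.4 and 71.8 CPM and the Hep-Bmal1KO livers 41.3, 38.6, 48.3 and 34.4 CPM, with no overlap. At ZT 6 the groups did overlap, with 163, 40.7, 144 and 182 CPM against 58.9, 44.8, 70.7 and 164 CPM. The Hep-Bmal1WT liver at 40.7 and the Hep-Bmal1KO liver at 164 were both among the 7 libraries nearer the other label. The log2 fold change was -0.48 (SE 0.14, adjusted p = 0.0178), and -0.61 (adjusted p = 0.000629) without those libraries. The call was lost without replicate 1 of each group (-0.44, adjusted p = 0.131) and without replicate 3 (-0.50, adjusted p = 0.069). On cdHFD the log2 fold change was -0.15 (95% interval -0.30 to -0.0023, adjusted p = 0.219), with medians of 71.5 and 61.6 CPM.

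Foxa1 and Foxa2 did not pass the genotype test on either diet. Foxa1 (ENSMUSG00000035451, chromosome 12 at 57540628-57548029) had a median of 21.1 CPM in Hep-Bmal1WT and 22.6 CPM in Hep-Bmal1KO on NC, with a log2 fold change of -0.012 (95% interval -0.38 to 0.35, adjusted p = 0.981). The interval leaves room for a change of the size called for Hnf4a. On cdHFD its log2 fold change was -0.16 (adjusted p = 0.112), with a lower Hep-Bmal1KO mean at 6 of 6 ZTs and overlapping livers at each of them. Foxa2 (ENSMUSG00000037025, chromosome 2 at 148042877-148046969) had medians of 40.6 and 40.9 CPM on NC, with a log2 fold change of -0.0053 (95% interval -0.28 to 0.27, adjusted p = 0.989). The sign of both NC estimates turned under some alternatives given in the closing section. On cdHFD, Foxa2 had medians of 25.5 and 20.6 CPM and a log2 fold change of -0.23 (SE 0.081, adjusted p = 0.0547). DESeq2 (adjusted p = 0.0427) and a fit with sex as a covariate (adjusted p = 0.0374) put that difference past the threshold.

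Both C/EBP genes were lower in Hep-Bmal1KO on NC. Cebpa (ENSMUSG00000034957, chromosome 7 at 35119293-35121928) encodes the factor of the differentiated, non-dividing hepatocyte, and it ranged from 61.5 to 221 CPM with a median of 173 in Hep-Bmal1WT and from 55.5 to 206 CPM with a median of 123 in Hep-Bmal1KO. At ZT 18 the Hep-Bmal1WT livers held 221, 177, 201 and 173 CPM and the Hep-Bmal1KO livers 85.1, 121, 153 and 144 CPM. The lowest and the highest value of the pair of groups at ZT 6, 61.5 in Hep-Bmal1WT and 206 in Hep-Bmal1KO, came from libraries nearer the other label. The log2 fold change was -0.39 (SE 0.10, adjusted p = 0.00823), or -23.6%, and -0.52 (adjusted p = 8.75e-06) without the 7 libraries. Without replicate 1 of each group it was -0.29 and not called (adjusted p = 0.153).

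Cebpa had the largest called genotype difference of the members on cdHFD. Its medians were 89.6 CPM in Hep-Bmal1WT and 66.3 CPM in Hep-Bmal1KO, and the log2 fold change was -0.48 (SE 0.090, adjusted p = 0.000229). At ZT 6 the livers did not overlap, at 126, 121, 135 and 95.1 CPM in Hep-Bmal1WT and 44.95, 55.8, 78.3 and 77.6 CPM in Hep-Bmal1KO. Its Hep-Bmal1KO mean was lower at 6 of 6 ZTs on each diet.

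Cebpb (ENSMUSG00000056501, chromosome 2 at 167688915-167690432), whose product is induced in the acute-phase response, was lower in Hep-Bmal1KO on NC alone by the test. Its lowest, median and highest levels were 186, 312 and 475 CPM in Hep-Bmal1WT and 161, 248 and 432 CPM in Hep-Bmal1KO. At ZT 14 the livers did not overlap, with 370, 353, 419 and 436 CPM against 321, 233, 262 and 266 CPM. The log2 fold change was -0.32 (SE 0.076, adjusted p = 0.00273), and -0.25 without replicate 1 of each group, where the call was lost (adjusted p = 0.06). On cdHFD the medians were 309 and 293 CPM, and the log2 fold change was -0.024 (95% interval -0.15 to 0.10, adjusted p = 0.884).

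Creb3l3 (ENSMUSG00000035041, chromosome 10 at 81084329-81098872) was lower in Hep-Bmal1KO on both diets. Its lowest, median and highest levels on NC were 265, 339 and 552 CPM in Hep-Bmal1WT and 223, 288 and 441 CPM in Hep-Bmal1KO. The groups did not overlap at ZT 6, with 314, 375, 404 and 298 CPM against 270, 253, 281 and 292 CPM. The log2 fold change was -0.22 on NC (SE 0.053, adjusted p = 0.00278) and -0.19 on cdHFD (SE 0.051, adjusted p = 0.00943). Both calls were lost without replicate 2 of each group, at -0.16 (adjusted p = 0.114) on NC and -0.14 (adjusted p = 0.213) on cdHFD.

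Onecut1 and Prox1 did not pass the genotype test. Onecut1 (ENSMUSG00000043013, chromosome 9 at 74861921-74889648) was the sparsest member, with 0 to 52 counts in a Hep-Bmal1WT liver on NC and 4 to 88 in a Hep-Bmal1KO liver. Its medians were 3.64 and 2.10 CPM, and the log2 fold change was -0.27 (95% interval -0.88 to 0.34, adjusted p = 0.666). A single Hep-Bmal1KO liver at ZT 14 held 16.5 CPM, against 1.94 to 3.50 CPM in the other 3. On cdHFD the log2 fold change was -0.36 (adjusted p = 0.66). Prox1 (ENSMUSG00000010175, chromosome 1 at 190118035-190170827) had medians of 31.5 and 29.4 CPM on NC, with log2 fold changes of -0.073 on NC (95% interval -0.30 to 0.15, adjusted p = 0.77) and -0.080 on cdHFD (95% interval -0.27 to 0.11, adjusted p = 0.691). Its antisense neighbour Prox1os held 4618 counts in all against 17916 for Prox1.

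**Figure D2:**
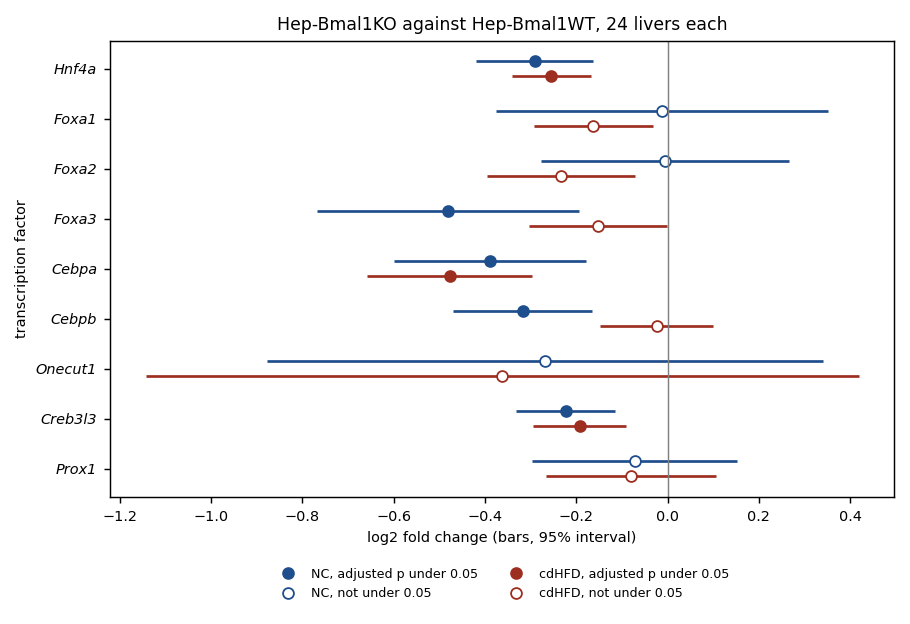
Log2 fold change of Hep-Bmal1KO against Hep-Bmal1WT (horizontal axis) for each factor, on NC and on cdHFD. Points are edgeR estimates from 24 livers a group, bars are 95% intervals, and filled points passed the threshold of 0.05 on the adjusted p. All estimates lie below 0, with 5 filled on NC and 3 on cdHFD.

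Without the 7 libraries, the same 5 members were called lower on NC and the same 3 on cdHFD. Cebpb was then -0.36 (adjusted p = 0.000594) and Creb3l3 -0.24 (adjusted p = 0.00176) on NC, and on cdHFD Hnf4a was -0.27 (adjusted p = 1.41e-05), Cebpa -0.52 (adjusted p = 3.62e-05) and Creb3l3 -0.21 (adjusted p = 0.00258).

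Whether the genotype effect differed between diets was tested directly. None of the 9 passed that test in the main edgeR fit, against 3.04% of all genes, and 2 had an unadjusted p under 0.05. These were Cebpb, whose effect on cdHFD was higher by 0.29 on the log2 scale (95% interval 0.10 to 0.49, adjusted p = 0.0794), and Foxa3, whose effect was higher by 0.33 (95% interval 0.0012 to 0.66, adjusted p = 0.301). For Cebpb the adjusted p ranged from 0.0322 to 0.497 over the alternatives. DESeq2 (0.0412), sex as a covariate (0.0478) and leaving out the 7 libraries (0.0322) put it past the threshold. The other 7 differences ran from -0.23 for Foxa2 to 0.036 for Hnf4a. A genotype effect on 1 diet only is therefore not shown for Foxa3, and for Cebpb it is not shown by the main fit and depends on the alternative chosen.

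The genotype comparison was also fitted in each sex alone. Males alone gave calls for the same 5 members on NC, with log2 fold changes of -0.35 for Hnf4a, -0.50 for Foxa3, -0.44 for Cebpa, -0.38 for Cebpb and -0.32 for Creb3l3. Females alone gave no call on NC, with -0.21, -0.51, -0.34, -0.24 and -0.095 for the same genes. Adjusted p in females ranged from 0.0649 for Foxa3 to 0.512 for Creb3l3, with 12 livers a group. Shares of all genes called in each sex alone are not given here. Whether the lack of calls in females is particular to the members is therefore not shown. On cdHFD, Creb3l3 was -0.30 in males (adjusted p = 0.0155) and -0.086 in females (adjusted p = 0.576). The difference between the sexes in the genotype effect was not tested.

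The second question was what the diet did. After 2 weeks of cdHFD, 8 of the 9 factors were lower in Hep-Bmal1WT, where 27.0% of all genes were called lower. In Hep-Bmal1KO, 7 were lower, against 29.6% of all genes, and 1 was higher, Cebpb, against 32.4% of all genes. The median log2 fold change over the members was -0.54 in Hep-Bmal1WT and -0.69 in Hep-Bmal1KO, against 0.013 and 0.023 over all genes tested. Hepatocyte markers were lower on cdHFD. The summed level of 6 hepatocyte markers had a median of 156539 CPM on NC and 73930 CPM on cdHFD in Hep-Bmal1WT, and 115094 and 62599 CPM in Hep-Bmal1KO.

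Hnf4a fell by 0.81 on the log2 scale in Hep-Bmal1WT (SE 0.059, adjusted p = 7.23e-17) and by 0.77 in Hep-Bmal1KO (SE 0.055, adjusted p = 2.11e-17). These are changes of -42.8 and -41.5%. Livers on the 2 diets did not overlap at 5 of 6 ZTs in Hep-Bmal1WT and at 6 of 6 in Hep-Bmal1KO. Over all ZTs, the ranges were 241 to 566 CPM on NC against 174 to 256 CPM on cdHFD in Hep-Bmal1WT. Cebpa fell by a like amount, 0.87 in Hep-Bmal1WT (SE 0.10, adjusted p = 4.42e-10) and 0.96 in Hep-Bmal1KO (SE 0.10, adjusted p = 6.86e-12), with no overlap at 4 of 6 ZTs in each genotype.

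The forkhead genes fell less evenly. Foxa2 fell by 0.80 in Hep-Bmal1WT (SE 0.12, adjusted p = 4.8e-08) and by 1.04 in Hep-Bmal1KO (SE 0.11, adjusted p = 3.89e-12). Foxa1 fell by 0.54 (SE 0.15, adjusted p = 0.00158) and by 0.69 (SE 0.13, adjusted p = 5.94e-06), and its spread between livers narrowed, from 8.32 to 56.9 CPM on NC to 7.70 to 23.01 CPM on cdHFD in Hep-Bmal1WT. In females alone, Foxa1 gave -0.16 in Hep-Bmal1WT (adjusted p = 0.464) and -0.29 in Hep-Bmal1KO (adjusted p = 0.0742). Foxa3 fell by 0.54 in Hep-Bmal1WT (SE 0.10, adjusted p = 1.02e-05). In Hep-Bmal1KO its log2 fold change was -0.21 (95% interval -0.48 to 0.051, adjusted p = 0.157). Its mean there was lower on cdHFD at 5 of 6 ZTs, with differences from -0.80 at ZT 14 to 0.67 at ZT 22, both without overlap. The test of the difference between genotypes is the one given above for both genotype effects.

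Onecut1 had the largest fitted fold change of the members. It fell by 2.60 in Hep-Bmal1WT (SE 0.36, adjusted p = 2.57e-08) and by 2.68 in Hep-Bmal1KO (SE 0.37, adjusted p = 1.4e-08), or -83.5 and -84.4%. In Hep-Bmal1WT the median went from 3.64 CPM on NC to 0.541 CPM on cdHFD, and in Hep-Bmal1KO from 2.10 to 0.397 CPM. On cdHFD a liver held 0 to 13 counts in Hep-Bmal1WT, with 5 of 24 at 0, and 0 to 12 counts in Hep-Bmal1KO, with 3 of 24 at 0. One Hep-Bmal1WT liver on NC, at ZT 6, was also at 0. In these 9 libraries a count of 0 allows a level of up to 0.309 to 0.570 CPM (3 counts of the library's total), a limit that covers counting error only.

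Creb3l3 and Prox1 fell by smaller amounts. Creb3l3 fell by 0.40 in Hep-Bmal1WT (SE 0.059, adjusted p = 6.36e-08) and by 0.38 in Hep-Bmal1KO (SE 0.049, adjusted p = 2.66e-09). At each of the 6 ZTs, all 4 Hep-Bmal1WT livers on cdHFD lay below all 4 on NC, and at ZT 10, where it was highest, they held 389, 409, 285 and 405 CPM on cdHFD against 521, 552, 435 and 448 CPM on NC. Prox1 fell by 0.37 (SE 0.12, adjusted p = 0.00647) and by 0.39 (SE 0.11, adjusted p = 0.00207). In Hep-Bmal1WT the Prox1 call was lost without replicate 4 of each group (-0.31, adjusted p = 0.0608) and in males alone (-0.20, adjusted p = 0.302), and in Hep-Bmal1KO it was lost in females alone (-0.24, adjusted p = 0.167).

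Cebpb was the only 1 of the 9 called lower on cdHFD in neither genotype. It did not pass the diet test in Hep-Bmal1WT (log2 fold change -0.0094, 95% interval -0.16 to 0.15, adjusted p = 0.93), where the medians were 312 CPM on NC and 309 CPM on cdHFD. Cebpb had a higher mean on cdHFD at 3 of 6 ZTs there and a lower mean at 3. It rose by 0.28 in Hep-Bmal1KO (SE 0.074, adjusted p = 0.000928), from a median of 248 to 293 CPM, with a higher mean on cdHFD at 6 of 6 ZTs. This pair of values and the pair of genotype values above rest on the same 4 groups, and the test of their difference is the one given above (adjusted p = 0.0794). Without the 7 libraries, 8 members were called in each genotype, as with them.

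**Figure D3:**
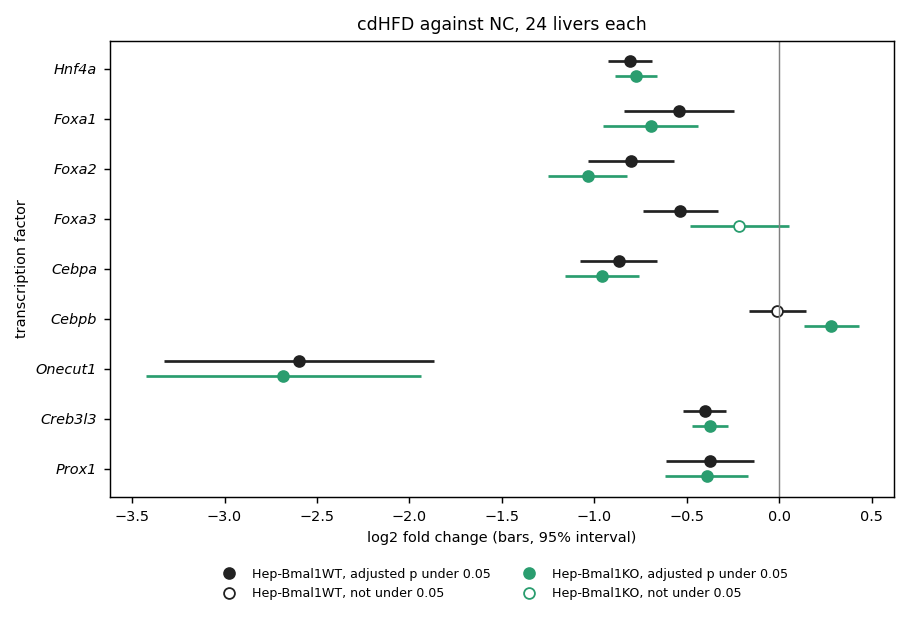
Log2 fold change of cdHFD against NC (horizontal axis) for each factor, in Hep-Bmal1WT and in Hep-Bmal1KO. Points are edgeR estimates from 24 livers a group, bars are 95% intervals, and filled points passed the threshold of 0.05 on the adjusted p. Onecut1 lies farthest to the left in both genotypes, and Cebpb in Hep-Bmal1KO is the only filled point above 0.

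Markers of other liver cells were counted on both diets as well. Over all genes, the diet raised 28.7% and lowered 27.0% in Hep-Bmal1WT, and raised 32.4% and lowered 29.6% in Hep-Bmal1KO. The summed level of 8 macrophage markers had a median of 388 CPM in Hep-Bmal1WT on NC (range 211 to 559) and 1899 CPM on cdHFD (range 997 to 2523). In Hep-Bmal1KO it went from 367 CPM (range 179 to 571) to 2069 CPM (range 1389 to 2875), and 8 of 8 of these genes rose in each genotype. The 8 stellate cell markers summed to a median of 294 CPM (range 187 to 444) and 678 CPM (range 519 to 1041) in Hep-Bmal1WT, and to 308 CPM (range 173 to 416) and 832 CPM (range 510 to 1499) in Hep-Bmal1KO. Of them, 7 rose in Hep-Bmal1WT and 8 in Hep-Bmal1KO. Of the 6 hepatocyte markers, 6 fell in each genotype, and their sums ranged from 103794 to 212337 CPM on NC and from 53591 to 89955 CPM on cdHFD in Hep-Bmal1WT.

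Endothelial markers were mixed, with 2 of 8 lower and 5 higher in each genotype, and medians of the sums between 198 and 226 CPM in the 4 groups. The 5 cholangiocyte markers tested summed to medians of 51.1 and 104 CPM in Hep-Bmal1WT (2 rose) and 89.9 and 225 CPM in Hep-Bmal1KO (3 rose). Lymphocyte markers were near the detection limit, with medians between 4.25 and 7.09 CPM, and 4 of 6 rose in Hep-Bmal1WT, and 2 rose and 1 fell in Hep-Bmal1KO. These counts stand beside 28.7% of all genes called higher and 27.0% lower in Hep-Bmal1WT, and 32.4% and 29.6% in Hep-Bmal1KO. No marker of any list was at 0 in all libraries of a group. The part of cell composition in the diet differences of the 9 factors was not tested.

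Between genotypes on NC, no macrophage, stellate, endothelial or lymphocyte marker was called, and of 6 hepatocyte markers 1 fell and 1 rose. Over all genes, 5.61% were called lower and 7.0% higher. The hepatocyte sum had a median of 156539 CPM (range 103794 to 212337) in Hep-Bmal1WT and 115094 CPM (range 90523 to 213892) in Hep-Bmal1KO. Abundant genes weigh most in such a sum. Over the 6 genes the median log2 fold change was 0.12, from -0.83 for Alb to 0.35. Of 5 cholangiocyte markers, 2 were called higher in Hep-Bmal1KO. The sums of the 5 had a median of 51.1 CPM (range 33.2 to 144) in Hep-Bmal1WT and 89.9 CPM (range 60.7 to 144.5) in Hep-Bmal1KO. On cdHFD, 4 of 8 stellate markers and 3 of 5 cholangiocyte markers rose, and among macrophage markers 1 of 8 rose and 1 fell, in Hep-Bmal1KO. Of the 6 hepatocyte markers, 1 fell and 1 rose there. Their sums had a median of 73930 CPM (range 53591 to 89955) in Hep-Bmal1WT and 62599 CPM (range 48671 to 86112) in Hep-Bmal1KO. Their median log2 fold change was 0.039, from -0.28 for Alb to 0.25. Over all genes, 4.99% were called lower and 4.62% higher on cdHFD. The part of cell composition in the genotype differences of the 9 factors was not tested.

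Genes that act beside or under these factors were counted in the same fits. Over all genes tested, 5.61% were lower and 7.0% higher in Hep-Bmal1KO on NC, and 4.99% lower and 4.62% higher on cdHFD. The diet lowered 27.0% and raised 28.7% of all genes in Hep-Bmal1WT, and lowered 29.6% and raised 32.4% in Hep-Bmal1KO. Of 21 other liver-enriched transcription factors tested, 6 were lower and 1 was higher in Hep-Bmal1KO on NC, with a list median of -0.21. Those with the largest called changes were Atf5, a stress-response leucine-zipper factor, at 0.70 (adjusted p = 6.88e-05), Ppara, the fatty-acid receptor, at -0.52 (adjusted p = 0.00536), and Nr1i3, the xenobiotic receptor CAR, at -0.49 (adjusted p = 0.0263). On cdHFD 6 were lower and 2 higher (median -0.16), led by Nr0b2, the co-repressor SHP, at -0.69 (adjusted p = 0.0066). The diet lowered 13 and raised 4 of them in Hep-Bmal1WT (median -0.27) and lowered 12 and raised 4 in Hep-Bmal1KO (median -0.40). Cebpd, another C/EBP gene of the acute-phase response, rose by 1.14 in Hep-Bmal1WT and by 1.52 in Hep-Bmal1KO, and Klf15, a factor of fasting metabolism, fell by 0.91 and by 0.85.

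Hepatocyte products known to depend on HNF4A, FOXA and C/EBP factors were lower on cdHFD throughout and went both ways between genotypes. Of 24 tested, 24 were lower on cdHFD in each genotype, with medians of -1.05 in Hep-Bmal1WT and -1.10 in Hep-Bmal1KO. Otc, a urea-cycle enzyme, had log2 fold changes of -1.44 and -1.67, and Tdo2, which degrades tryptophan, of -1.37 and -1.63. Between genotypes, 3 were lower and 7 higher on NC (median 0.080), and 7 were lower and 1 higher on cdHFD (median -0.0014). Gys2, the liver glycogen synthase, was lower in Hep-Bmal1KO, with log2 fold changes of -0.99 on NC (adjusted p = 1.8e-06) and -0.64 on cdHFD. Alb itself, whose promoter drives Cre in these mice, had a log2 fold change of -0.83 on NC (adjusted p = 5.74e-05) and -0.28 on cdHFD.

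Creb3l3 fell on cdHFD, and of its 7 known targets tested more rose than fell. In Hep-Bmal1WT, 5 rose and 1 fell (median 0.78), and in Hep-Bmal1KO 4 rose and 1 fell (median 0.54), beside 28.7% and 32.4% of all genes called higher. Fgf21, a fasting hormone, rose by 4.28 and 4.19, Cidec, a lipid-droplet protein, by 3.79 and 4.60, and Apoa4, an apolipoprotein, by 3.69 and 3.97. Between genotypes, 1 was lower and 1 higher on each diet, Cidec being lower on NC (log2 fold change -1.12, adjusted p = 0.019). Of 8 acute-phase genes under C/EBP-beta, 5 rose and 2 fell on cdHFD in Hep-Bmal1WT (median 1.19), and 4 rose and 1 fell in Hep-Bmal1KO (median 0.70), beside the same shares of all genes. Lcn2 rose by 5.19 and 4.71, Orm2 by 1.90 and 1.80, and Saa1 by 1.46 and 1.12. Between genotypes, 1 was lower on NC (Il6ra, the interleukin-6 receptor, at -0.65) and 2 on cdHFD (Orm1 at -0.49 and Hp at -0.22).

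Fetal and ductal genes, which are low in adult hepatocytes, rose where they were called. Of 9 tested, 3 were higher in Hep-Bmal1KO on NC (median 0.48) and 4 on cdHFD (median 0.68), where 7.0% and 4.62% of all genes were higher. The diet raised 4 in Hep-Bmal1WT (median 1.05) and 7 in Hep-Bmal1KO (median 1.69), where 28.7% and 32.4% of all genes were higher. None was called lower. Sox9, a factor of bile duct cells, was higher in Hep-Bmal1KO on NC by 1.06, and Afp, alpha-fetoprotein, rose on cdHFD by 1.97 in Hep-Bmal1WT and 2.38 in Hep-Bmal1KO. This list shares Sox9, Epcam, Spp1 and the keratins with the cholangiocyte markers above.

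The third question was whether these factors cycled over the day. A 24-hour cosine and sine were fitted to the 24 livers of each group (edgeR), and amplitude and peak time were taken from a cosinor fit to variance-stabilized log2 values. In Hep-Bmal1WT on NC, 3 of 9 were called rhythmic, Cebpb, Onecut1 and Creb3l3, against 19.1% of all genes. In Hep-Bmal1KO on NC none was called, against 4.34% of all genes, and 3 (Hnf4a, Foxa3 and Prox1) had an unadjusted p under 0.05. On cdHFD, 2 were called in Hep-Bmal1WT, Cebpb and Foxa1, against 14.6% of all genes, and 1 in Hep-Bmal1KO, Foxa2, against 3.83%.

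Cebpb was called rhythmic in Hep-Bmal1WT on both diets, with a different peak. On NC its group means at ZT 2, 6, 10, 14, 18 and 22 were 232, 249, 397, 395, 346 and 312 CPM. The amplitude was 0.40 ± 0.076 (SE) on the log2 scale, and the fitted peak was at 14.2 ± 0.737 h (adjusted p = 0.00275). On cdHFD the means were 288, 334, 402, 329, 254 and 286 CPM, with an amplitude of 0.26 ± 0.060 and a peak at 9.25 ± 0.866 h (adjusted p = 0.00842). The level at ZT 10 was alike on both diets, and the decline came earlier on cdHFD. The mean was higher on cdHFD at ZT 2 and 6 and lower at ZT 14, 18 and 22, without overlap at ZT 18 only. The diet-by-rhythm test in Hep-Bmal1WT called Cebpb (adjusted p = 0.0184) and Onecut1 (adjusted p = 0.0292), against 6.19% of all genes. For Cebpb that call was lost without replicate 1 (0.176), 3 (0.173) or 4 (0.0718) and in either sex alone. Its rhythm call on cdHFD was lost without replicate 1 (0.0872) or 3 (0.0599).

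Onecut1 was highest late in the night in Hep-Bmal1WT on NC. At ZT 22 the 4 livers held 5.31, 7.35, 11.2 and 9.32 CPM, and at ZT 6 they held 2.00, 1.73, 0.659 and 0 CPM. The amplitude was 0.68 ± 0.16 with a peak at 20.1 ± 0.910 h (adjusted p = 0.00945), and the call was lost without replicate 3 (adjusted p = 0.0596). Its diet-by-rhythm call was lost without replicate 1 (0.109), 2 (0.12) or 4 (0.19), in males alone (0.258) and in females alone (0.175). On cdHFD its levels were within 0 to 1.95 CPM, where few counts limit any rhythm estimate.

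Creb3l3 was highest at ZT 10 in each of the 4 groups. At that time Hep-Bmal1WT livers on NC held 521, 552, 435 and 448 CPM and Hep-Bmal1KO livers 385, 401, 441 and 398 CPM, and on cdHFD Hep-Bmal1KO livers held 331, 288, 342 and 363 CPM. The cosine fit called it in Hep-Bmal1WT on NC only (amplitude 0.26 ± 0.074, peak 8.49 ± 1.09 h, adjusted p = 0.0221), and the call was lost without replicate 1 (0.105), 3 (0.115) or 4 (0.0644). A fit with ZT as a factor, which assumes no cosine shape, called it in the other 3 groups as well (adjusted p = 0.000463 in Hep-Bmal1KO on NC, 0.000237 in Hep-Bmal1WT on cdHFD and 0.00226 in Hep-Bmal1KO on cdHFD). The same fit called Cebpa in Hep-Bmal1WT on cdHFD (adjusted p = 0.0427) and Prox1 on NC in Hep-Bmal1WT (adjusted p = 0.0226) and in Hep-Bmal1KO (adjusted p = 0.00077), where in Hep-Bmal1KO livers held 15.0, 15.4, 21.2 and 29.4 CPM at ZT 6 and 53.6, 67.5, 53.1 and 43.3 CPM at ZT 10.

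The 2 remaining calls were on forkhead genes. Foxa2 in Hep-Bmal1KO on cdHFD had group means of 28.95, 17.2, 16.8, 19.6, 21.3 and 27.1 CPM from ZT 2 to ZT 22, an amplitude of 0.34 ± 0.066 and a peak at 22.8 ± 0.751 h (adjusted p = 0.00797). It was lost without replicate 2 (0.0548) or 3 (0.0806). In Hep-Bmal1WT on NC, Foxa2 had a like peak at 21.7 ± 1.31 h with an amplitude of 0.39 ± 0.13 and was not called (adjusted p = 0.0588). DESeq2 (0.0262), no count filter (0.0483), leaving out replicate 3 (0.0476) and sex as a covariate (0.0184) put it past the threshold. Foxa1 in Hep-Bmal1WT on cdHFD had an amplitude of 0.21 ± 0.055 and a peak at 12.6 ± 0.989 h (adjusted p = 0.0446), and the call was lost in 8 of 12 alternatives (adjusted p from 0.0248 to 0.205). Without the 7 libraries Foxa1 gave an adjusted p of 0.0677, and the other rhythm calls held.

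A difference of rhythm between genotypes was not shown for any member. The genotype-by-rhythm test called 0 of 9 on NC by edgeR, with 0 at an unadjusted p under 0.05, against 0.392% of all genes. On cdHFD it called 0 of 9, with 1 (Cebpa) at an unadjusted p under 0.05, against 0.424% of all genes. For Cebpb on NC the amplitude was 0.40 ± 0.076 in Hep-Bmal1WT and 0.21 ± 0.088 in Hep-Bmal1KO, where the fitted peak was at 14.0 h. The loss of its call in Hep-Bmal1KO is therefore not a shown loss of rhythm.

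**Figure D4:**
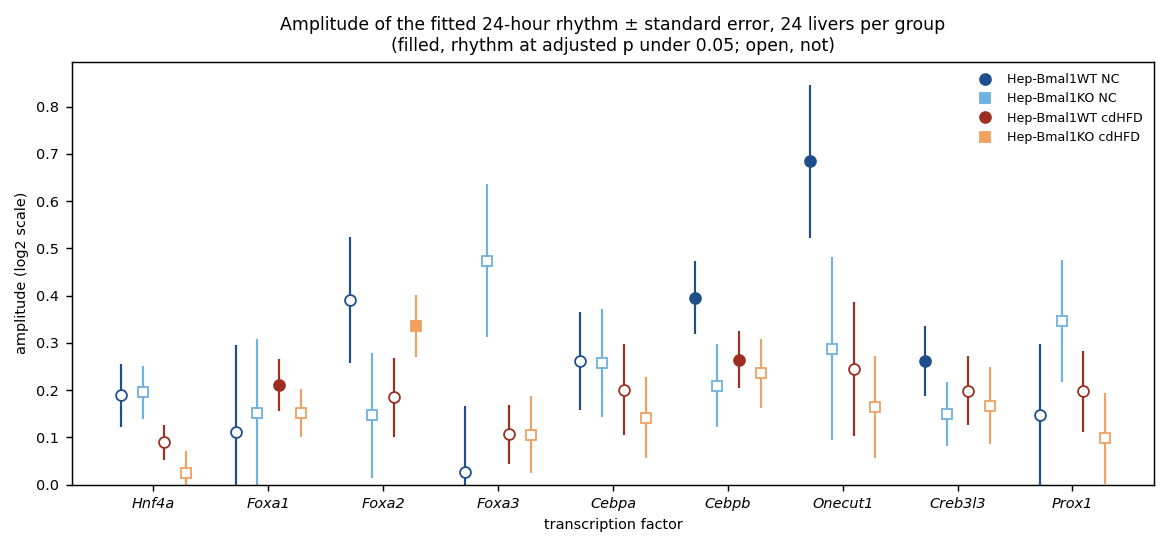
Amplitude of the 24-hour cosinor on variance-stabilized log2 values (vertical axis) for each factor (horizontal axis) in each of the 4 groups. Points are estimates from 24 livers, bars are ± 1 SE, and filled points were called rhythmic by edgeR. Onecut1 in Hep-Bmal1WT on NC has the largest amplitude (0.68), and in Hep-Bmal1KO on NC no point is filled.

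Both sexes were present in every group of genotype and diet, 12 males and 12 females, except for 13 males and 11 females in Hep-Bmal1WT on cdHFD. Over all 96 livers, 3 of 9 members differed between the sexes, against 17.2% of all genes. Foxa1 was lower in females (log2 fold change -0.32, SE 0.094, adjusted p = 0.0083), as was Cebpb (-0.15, SE 0.047, adjusted p = 0.019), and Foxa2 was higher in females (0.21, SE 0.078, adjusted p = 0.0496). Leaving out 1 replicate number in turn lost the Foxa2 call in 3 of 4 settings (adjusted p from 0.0558 to 0.337), the Cebpb call in 3 of 4 (0.0841 to 0.171) and the Foxa1 call in 2 of 4 (0.126 and 0.128). These numbers mark mostly males or mostly females, so each setting removed livers of mainly 1 sex.

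After these values were seen, the sexes were compared within each diet. On NC, 2 of 9 differed, against 18.6% of all genes. Foxa1 was lower in females (-0.62, SE 0.16, adjusted p = 0.00387), with medians of 25.9 CPM in males and 18.4 CPM in females of Hep-Bmal1WT and 24.9 and 17.3 CPM in Hep-Bmal1KO. Creb3l3 was lower in females (-0.14, SE 0.049, adjusted p = 0.0406), with medians of 369 and 299.6 CPM in Hep-Bmal1WT and 288 and 287 CPM in Hep-Bmal1KO. The Creb3l3 call was lost in 4 of 7 alternatives, with DESeq2's size factors (adjusted p = 0.0707) and without replicate 2 (0.37), 3 (0.0604) or 4 (0.311), and the Foxa1 call in 1 of 7, without replicate 3 (0.0716). The highest Foxa1 values were in males, at 56.9 CPM in Hep-Bmal1WT at ZT 2 and 46.2 CPM in Hep-Bmal1KO at ZT 14, while the highest female value was 35.2 CPM.

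On cdHFD no member differed between the sexes in the main edgeR fit, against 5.76% of all genes, and 1 had an unadjusted p under 0.05 (Cebpb, -0.18, adjusted p = 0.0509). DESeq2 (adjusted p = 0.0266) and the fit without the 7 libraries (adjusted p = 0.0254) called it. Foxa1 gave -0.043 (adjusted p = 0.831) and Creb3l3 0.074 (adjusted p = 0.504). The test of the difference between diets called both, Foxa1 at 0.57 (SE 0.18, adjusted p = 0.0312) and Creb3l3 at 0.21 (SE 0.069, adjusted p = 0.0479), against 7.91% of all genes. Over the alternatives the adjusted p ranged from 0.0146 to 0.228 for Foxa1 and from 0.0171 to 0.48 for Creb3l3, and leaving out any 1 replicate number lost both calls.

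**Figure D5:**
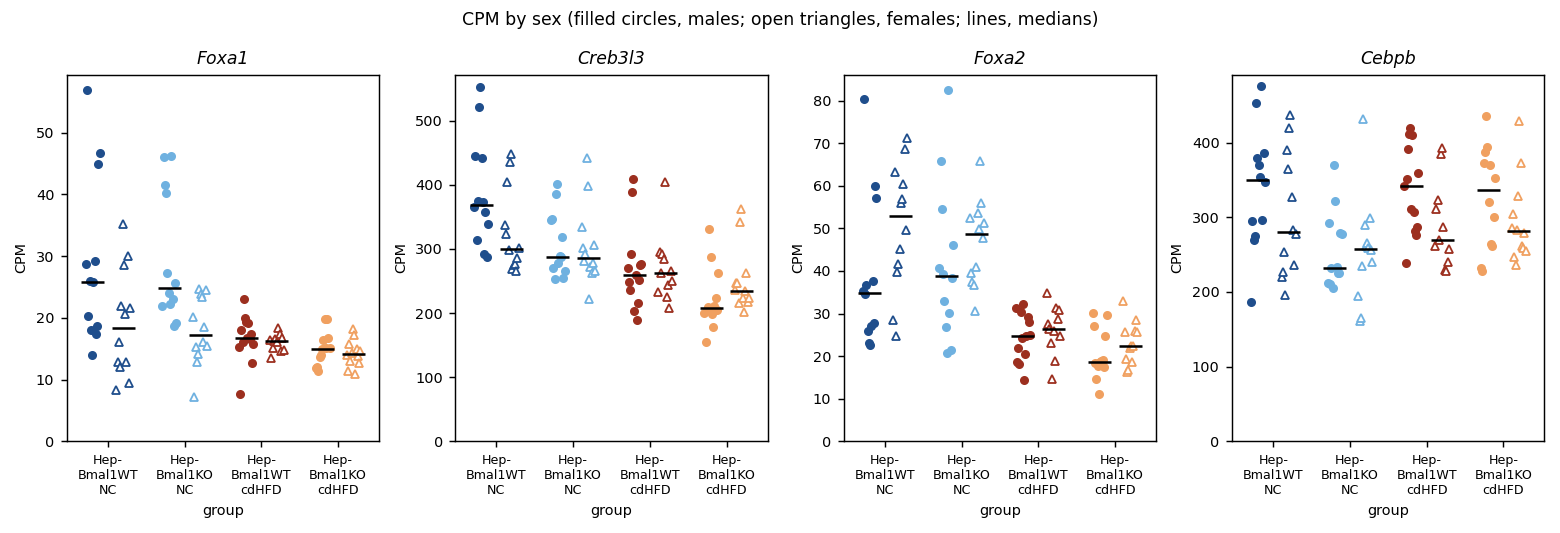
Levels in CPM (vertical axis) of Foxa1, Creb3l3, Foxa2 and Cebpb in the 4 groups of genotype and diet. Filled circles are males, open triangles are females and lines are medians. For Foxa1 on NC the medians are 25.9 (males) and 18.4 CPM (females) in Hep-Bmal1WT, and on cdHFD they are 16.8 and 16.3 CPM.

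The pattern of each factor over the 24 means of genotype, diet and ZT was set beside that of 9000 genes of at least 5 mean CPM, as a description. The means share libraries, depth and the diet difference, which alone separates 12 of them from 12. Hnf4a was followed most closely by Hsd11b1, which activates glucocorticoids, Cyp2c23 and Mettl7a1 (Pearson r = 0.97 for each). Cebpa went with Atg4d (0.94), Hes6 (0.93) and C1ra (0.93), Foxa2 with Zfp2 (0.94), Cd59b (0.93) and Phlda1 (0.93), and Foxa1 with Naa60 (0.90), Ces2c (0.90) and Acacb (0.89). Creb3l3 went with Ndufb8, Gm44250 and Zzef1 (0.94 each). Onecut1 went with Urad (0.92), Mup7 (0.91) and Crybg3 (0.90), and Prox1 with Chd9 (0.88), St3gal4 (0.83) and Pura (0.83). Mup7 belongs to a family of near-identical copies, and its counts are uncertain. Cebpb, whose level did not fall with the diet, went with Tspan4 (0.89), Mfsd2a (0.84) and Cys1 (0.82). Foxa3 had the lowest best match, with Atp1b1 (0.69), Herpud1 (0.69) and Setd4 (0.68).

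Among the members themselves the highest correlations were Hnf4a with Cebpa (r = 0.88), Foxa2 with Onecut1 (0.85) and Hnf4a with Foxa1 (0.80). The lowest was Cebpb with Foxa2 (-0.43). All are over the same 24 means.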

How the data were processed

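Whole-liver RNA of 96 mice was sequenced from the 3′ end (BRB-seq). The authors deposited raw counts per gene in 1 table, with mm10 among the builds and STAR and HTSeq among the tools named in the submitters' processing notes. Rows that name no gene were left out of library sizes and tests. They held 14.8 to 34.0% (not aligned) and 5.65 to 11.3% (no feature) of a library's total.

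The 15548 genes whose counts summed to 100 or more were tested in R 4.3.3 with edgeR 4.0.16: TMM scaling, quasi-likelihood F-test and Benjamini-Hochberg adjustment over all genes, with a threshold of 0.05. Genotype was compared within diet and diet within genotype, with ZT as a factor. CPM are TMM-scaled, and log2 CPM used a prior count of 2. Amplitude and peak came from a least-squares cosinor of 24 h on values stabilized by DESeq2 1.42.0. Intervals are at the 95% level. DESeq2, its size factors, other filters, sex as a covariate, each sex alone and leaving out replicate numbers or the 7 libraries were alternatives. Scripts were tested on simulated data. Counts of the 144 replicate pairs differed by more than sampling noise, with a lowest chi-square per gene of 4.24.

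The members and gene lists were chosen with earlier results of these data known. All 9 members were named in each comparison, and of each other list up to 3 called genes with the largest absolute change, of which some are printed, and for each member the 3 genes of highest correlation. Overlapping genes were read from RefSeq (GRCm38.p6).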

Additional observations from a re-analysis of the deposited data

Results flagged for a closer look

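In groups of 4 livers, a value was picked out where its gap to the nearest other value, divided by the group's range, was above Dixon's 95% critical value. Of 216 groups (9 members in 24 groups), 10 met this, and chance gives about 10.8. They were Cebpa at 66.1 CPM (Hep-Bmal1KO on cdHFD, ZT 14, replicate 4), Creb3l3 at 285 CPM (Hep-Bmal1WT on cdHFD, ZT 10, replicate 3), Foxa2 at 54.6 CPM (Hep-Bmal1KO on NC, ZT 6, replicate 1) and at 22.5 CPM (Hep-Bmal1KO on cdHFD, ZT 14, replicate 3). Foxa3 was picked out at 80.8 CPM (ZT 2, replicate 3) and 139 CPM (ZT 18, replicate 1) in Hep-Bmal1WT on NC, and Onecut1 at 6.68 CPM (Hep-Bmal1KO on NC, ZT 18, replicate 3) and 1.03 CPM (Hep-Bmal1KO on cdHFD, ZT 6, replicate 4). Foxa1 at 46.2 CPM and Onecut1 at 16.5 CPM came from the same liver (Hep-Bmal1KO on NC, ZT 14, replicate 2). The liver with Creb3l3 at 285 CPM was among the 7 nearer the other label.

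In 4 cases an effect differed between groups by the test of the difference itself. The 24-hour rhythm in Hep-Bmal1WT differed between diets for Cebpb (adjusted p = 0.0184) and Onecut1 (adjusted p = 0.0292). The sex difference differed between diets for Foxa1 (adjusted p = 0.0312) and Creb3l3 (adjusted p = 0.0479), in comparisons chosen after the values by sex were seen.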

How the results depend on the processing

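The alternatives were fitted 1 at a time, and shares of all genes called under them are not set beside the members' counts. Of the members' values under them, 1451 kept their side of the threshold and, where the test gives one, their direction. A further 65 lost the call, 22 gained one and 53 changed sign, and no called value changed sign. The rhythm and by-rhythm tests give no direction and were compared by the threshold alone. Where the cause is not named, the cause was not tested. DESeq2's size factors moved the median of all genes by at most 0.049. Depth limits Onecut1 most, and 15548 genes were tested at 1861740 counts or more a library. DESeq2 gave Onecut1 no adjusted p in either genotype-by-rhythm fit. Replicate numbers mark mostly 1 sex each, so leaving one out also shifts the balance of the sexes. No paired analysis was possible because replicate numbers were given in accession order and only name samples.

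Leaving out 1 replicate number in turn, members called ranged from 2 to 5 for genotype on NC, 2 to 3 for genotype on cdHFD, 7 to 8 for diet in Hep-Bmal1WT and 8 to 8 in Hep-Bmal1KO. For rhythm they ranged from 2 to 4 in Hep-Bmal1WT on NC, 0 to 1 in Hep-Bmal1WT on cdHFD and 0 to 1 in Hep-Bmal1KO on cdHFD, and 0 to 0 in Hep-Bmal1KO on NC. They ranged from 0 to 1 for diet by rhythm, 0 to 2 for female against male, 0 to 2 for the same on NC, and 0 to 0 on cdHFD, for the difference between both sex effects, for the difference between both genotype effects and for genotype by rhythm on each diet.

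Fewer livers gave other counts: females alone called 0 for genotype on NC and 0 for diet by rhythm, and males alone called 1 for diet by rhythm, Foxa1 (adjusted p = 0.0134), while Cebpb (0.25) and Onecut1 (0.258) were lost. The difference between genotype effects gave 1 call (Cebpb) by DESeq2, 1 with sex as a covariate and 1 without the 7 libraries. ZT as a factor called 2 in Hep-Bmal1KO on NC and 2 in Hep-Bmal1KO on cdHFD. For rhythm in Hep-Bmal1WT on cdHFD, no count filter, no 7 libraries and sex as a covariate left 1 call each. DESeq2's size factors left 1 call for sex on NC and 1 for the difference between sex effects, and for sex on cdHFD DESeq2 gave 1 and leaving out the 7 libraries gave 1.

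The sign changes were all of estimates that did not pass the test. For genotype on NC, Foxa1 was 8.476e-05 with no filter, 0.089 without the 7 libraries, 0.11 in males and -0.056 to 0.095 with 1 replicate number left out. Foxa2 was 0.0048, 0.039, 0.14 and -0.055 to 0.11 in the same settings and 0.0021 with sex as a covariate, and in males Onecut1 was 0.086 and Prox1 0.076. For genotype on cdHFD, females gave 0.0021 for Cebpb, 0.057 for Onecut1 and 0.10 for Prox1.

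For the difference between genotype effects, Prox1 was 0.0065 with DESeq2's size factors, 0.0076 by DESeq2, 0.0020 with at least 10 counts in 24 libraries, 0.061 without the 7 libraries and 0.28 in females, who gave -0.0062 for Hnf4a and 0.81 for Onecut1. Ranges with 1 replicate number left out were -0.10 to 0.14 for Prox1, -0.0031 to 0.051 for Hnf4a, -0.20 to 0.015 for Cebpa, -0.0032 to 0.073 for Creb3l3 and -0.26 to 0.19 for Onecut1. For diet in Hep-Bmal1WT, Cebpb was 0.023 with DESeq2's size factors, 0.019 by DESeq2, 0.026 with no filter, 0.027 without the 7 libraries, 0.025 in males, 0.025 in females and -0.035 to 0.040 with 1 replicate number left out.

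For female against male, leaving out the 7 libraries gave -0.028 for Cebpa over all livers and -0.040 on NC, 0.038 for Foxa3 on cdHFD, and for the difference between diets 0.014 for Cebpa and 0.035 for Prox1. Ranges with 1 replicate number left out were -0.040 to 0.0032 for Hnf4a, -0.064 to 0.0052 for Creb3l3 and -0.47 to 0.23 for Onecut1 over all livers. On NC they were -0.017 to 0.21 for Prox1 and -0.68 to 0.15 for Onecut1. On cdHFD they were -0.098 to 0.0052 for Foxa1, -0.36 to 0.66 for Onecut1 and -0.063 to 0.047 for Foxa3. For the difference between diets they were -0.16 to 0.061 for Prox1 and -0.033 to 1.13 for Onecut1.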
